A study of Mus musculus with 4 samples.

Results

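Dnajb9, Dnajb11, Dnajc3, Dnajc10, Sdf2l1, Creld2, Manf and Hyou1 encode co-chaperones and inducible folding factors of the endoplasmic reticulum (ER). They were chosen by symbol, and their rows are 8 of 32285 genes in a pooled single-cell RNA-seq matrix of mouse pancreatic islets. The study drew on 2 samples labelled Xbp1{beta}-/-, in which Xbp1 is deleted in beta cells, and 2 samples labelled Xbp1fl/fl, which carry the floxed allele. All 4 came from NOD mice aged 5 weeks and all received tamoxifen at 10 mg/ml by intraperitoneal injection, so the controls were exposed to it too. The promoter that drives Cre and the number of mice behind each sample are not given in the sources used here. Islets were hand-picked, kept overnight in culture and dissociated before droplet capture. Each barcode carries a library number from 1 to 4, and no label ties a number to a sample, and genotypes are therefore not compared. Each value is given by library number, and these numbers carry no order.

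BiP, encoded by Hspa5, is the HSP70 chaperone of the ER lumen, and it binds and releases nascent secretory proteins in a cycle driven by ATP. J-domain proteins bring substrates to BiP and start ATP hydrolysis, while nucleotide exchange factors free the substrate again. Beta cells make very large amounts of proinsulin, and load on the ER activates the unfolded protein response, whose sensors IRE1, PERK and ATF6 act through the transcription factors XBP1, ATF4 and cleaved ATF6. Dnajb9, Dnajb11 and Dnajc3 are known targets of XBP1, and the ER stress response element (ERSE) is bound by ATF6 and XBP1 together with the factor NF-Y.

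In GENCODE M21 on GRCm38 all 8 are annotated as protein-coding genes. Dnajb9 (ENSMUSG00000014905) spans chr12:44205559-44210326 on the minus strand and Dnajb11 (ENSMUSG00000004460) spans chr16:22857845-22879634 on the plus strand. Dnajc3 (ENSMUSG00000022136) spans chr14:118937976-118981697 and Dnajc10 (ENSMUSG00000027006) spans chr2:80315466-80354043, both on the plus strand. Sdf2l1 (ENSMUSG00000022769) lies at chr16:17130138-17132383, minus strand, and Creld2 (ENSMUSG00000023272) at chr15:88819646-88826683, plus strand. Chromosome 9 carries both Manf (ENSMUSG00000032575, chr9:106838312-106891979, minus strand) and Hyou1 (ENSMUSG00000032115, chr9:44379490-44392369, plus strand).

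Promoter sequences were at hand for 6 of the 8 genes in a RefSeq table of GRCm38.p6, which holds 250 bases before to 50 bases after each annotated start. Those of Manf and Hyou1 were not analysed here. Stretches of 90 bases from 5 genes are printed because they hold, or lack, the elements known from stress-inducible ER chaperone genes. Each is printed in the direction of its gene, with matching letters in capitals.
Creld2, chr15:88819490-88819579, plus strand: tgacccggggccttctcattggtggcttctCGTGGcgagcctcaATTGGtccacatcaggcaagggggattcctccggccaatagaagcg
Dnajc3, chr14:118937797-118937886, plus strand: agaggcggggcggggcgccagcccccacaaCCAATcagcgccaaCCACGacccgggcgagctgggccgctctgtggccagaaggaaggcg
Dnajb11, chr16:22857773-22857862, plus strand: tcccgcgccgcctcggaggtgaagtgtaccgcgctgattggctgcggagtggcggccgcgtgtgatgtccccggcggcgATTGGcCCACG
Sdf2l1, chr16:17132384-17132473, minus strand: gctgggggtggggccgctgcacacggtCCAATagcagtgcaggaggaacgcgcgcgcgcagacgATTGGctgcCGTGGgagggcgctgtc
Dnajc10, chr2:80315376-80315465, plus strand: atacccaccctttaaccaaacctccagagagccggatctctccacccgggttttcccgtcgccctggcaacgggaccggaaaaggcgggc

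In Creld2 the capitals mark the fixed letters of an ERSE, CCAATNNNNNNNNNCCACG, read on the opposite strand at -126 to -108 from the start. Dnajc3 holds the same element on its own strand at -105 to -87 from its RefSeq start. That start lies upstream of the GENCODE start of Dnajc3 given above. Of 32851 promoters of the table, 39 (0.119%) hold an ERSE on either strand, and of the 6 genes it is Creld2 and Dnajc3. In Dnajb11 the capitals mark the element ERSE-II, ATTGG and CCACG with 1 base between them, at 8 to 18 after the start, which 12 promoters (0.0365%) hold. It shares CCACG, and in reverse CCAAT, with the ERSE. For Sdf2l1 the capitals mark separate copies of CCAAT and CCACG on either strand, which do not have the spacing of an ERSE. CCAAT alone is in 37.4% of promoters and CCACG alone in 32.8%. Dnajc10 is the exception among the 6, with neither CCAAT nor CCACG in its window, and each of the other 5 holds both. The window of Dnajb9, which is not printed, lies within an annotated first exon of the gene. Its letters are thus not upstream of every annotated start of Dnajb9. The core of the XBP1-bound element UPRE, TGACGTGG, is in 222 promoters (0.676%) and in 0 of these 6. A match in letters is a description and not a measured binding site.

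After filtering, 16146 of 19987 barcodes were kept. The share removed was uneven, at 12.0%, 29.7%, 13.8% and 13.1% in libraries 1 to 4. Cells with at least 5% of their unique molecular identifiers (UMIs) from Ins2 were taken as beta cells, which gave 589, 3342, 733 and 2221 cells in libraries 1 to 4. Alpha cells (Gcg at 5% or more) numbered 252, 769, 298 and 727, delta cells (Sst at 3% or more) 220, 426, 334 and 403, and non-endocrine cells 2474, 398, 1922 and 210. Library totals ran from 82963911 to 178396311 UMIs, and beta cells had medians of 37371 to 45314 UMIs. Hormone transcripts took 40.0%, 57.7%, 40.9% and 56.5% of beta-cell UMIs in libraries 1 to 4. Levels are therefore given in CPM, here UMIs per 1000000 UMIs outside 7 hormone genes, summed over the cells of a class in a library. Several other markers fit the classes. Mafa stood at 606, 1631, 681 and 1151 CPM and G6pc2 at 875 to 1253 in beta cells of libraries 1 to 4. Irx2 stood at 137 or more in alpha cells and at 15.2 or less in beta cells, and Hhex at 375 or more in delta cells. The alpha markers Ttr and Gc separated the classes less well. Ttr stood at 355 to 3841 in beta cells and at 4888 to 7443 in alpha cells. Gc stood at 97.9 to 239 in beta, 142 to 343 in delta and 493 to 515 in alpha cells. Summed Ins2 in alpha cells stood at 0.515% to 2.16% of its beta-cell level, and whether free RNA or doublets carried it was not tested. Libraries share 28 barcodes, carried by 56 cells. Xbp1 itself stood at 82.2, 227, 76.3 and 221 CPM in beta cells of libraries 1 to 4, which does not check the deletion, since the deleted part of the gene is not given.

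Across the 4 libraries, all 8 genes had uneven levels in beta cells, with the highest library at least 1.5-fold above the lowest after adding 10 CPM to each level. Of all genes tested in beta cells, 14.6% had such a range, and the median gene had 1.19-fold. Libraries 2 and 4 were above libraries 1 and 3 for each of the 8 genes. Since no library is tied to a sample, the ranges are descriptions and no test between libraries was made.

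Among the J-domain proteins, Dnajb9 (ERdj4), which binds misfolded clients and also holds IRE1 in check, had the widest range at 3.56-fold. Its levels in libraries 1 to 4 were 149.8 CPM (95% Poisson interval 144 to 156), 519.6 (514 to 525), 162 (157 to 168) and 559 (551 to 566). These intervals cover counting error only, and those of libraries 1 and 3 lie far below those of the other two libraries. Dnajb11 (ERdj3), a soluble co-chaperone that hands unfolded proteins to BiP, stood at 105, 227, 108 and 247 CPM in libraries 1 to 4, a 2.23-fold range. Dnajc3 (p58IPK), known for holding substrates and for restraint of PERK, stood at 265, 472, 269 and 530.2, a 1.97-fold range. Loss of Dnajc3 is known to cause diabetes in mice and people. Dnajc10 (ERdj5), a reductase that opens disulfides of proteins bound for degradation, had the smallest range of the 8 at 1.73-fold, with levels of 68.97, 118, 64.9 and 119.

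Sdf2l1, which forms a complex with Dnajb11 and keeps its clients from aggregating, had a 3.35-fold range. Its levels were 145 CPM (95% interval 139.9 to 151), 459.9 (455 to 465), 161 (156 to 167) and 511 (504 to 518) in libraries 1 to 4. Its close relative Sdf2, which is not known as stress-inducible, stood at 121, 119, 118 and 124 CPM in the same cells, a range of 1.05-fold. Thus one of the pair had nearly even levels in cells where the other did not.

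Hyou1 (GRP170), a large HSP70 relative that acts as nucleotide exchange factor of BiP, stood at 106 CPM (101 to 111), 344 (339 to 348), 109 (105 to 114) and 332 (326 to 338), a 3.06-fold range. The other exchange factor of the ER, Sil1, stood at 41.8, 46.7, 42.8 and 40.9, a 1.12-fold range. Here again the levels of one gene with a given role were uneven and those of the other were close. Not every relative was even, since the BiP relative Hspa13 stood at 69.2, 133, 71.5 and 136 CPM. That is a 1.85-fold range, with its higher values in libraries 2 and 4.

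Manf, a secreted ER protein that binds BiP and is needed for beta-cell survival in mice, stood at 492, 1177, 491 and 1273 CPM, a 2.56-fold range. Creld2, a disulfide isomerase-like protein, stood at 82.7, 199, 92.5 and 230.5, a 2.60-fold range, while its relative Creld1 had 1.18-fold. The Manf paralog Cdnf was near the detection limit, at 2.77 CPM or less.

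Hspa5, the partner of the J-domain proteins and the exchange factors, had levels of 1391, 2188, 1398 and 2355 CPM, a 1.69-fold range, smaller than that of each of the 8 genes. Hsp90b1 (GRP94), the abundant HSP90 of the ER, stood at 2329, 2097, 2407 and 2131, a 1.15-fold range with its lower values in libraries 2 and 4. Of the 12 genes listed as the HSP70 cycle of the ER, 3 had a range of at least 1.5-fold in beta cells, with a list median of 1.19-fold. For abundant folding enzymes it was 11 of 13, with a median of 1.74-fold. Genes of UPR sensors and factors gave 8 of 10, degradation genes (ERAD) 4 of 12, PERK-ATF4 genes 6 of 8 and cytosolic heat shock genes 1 of 12. The median over the 8 co-chaperones and folding factors was 2.58-fold.

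**Figure D1:**
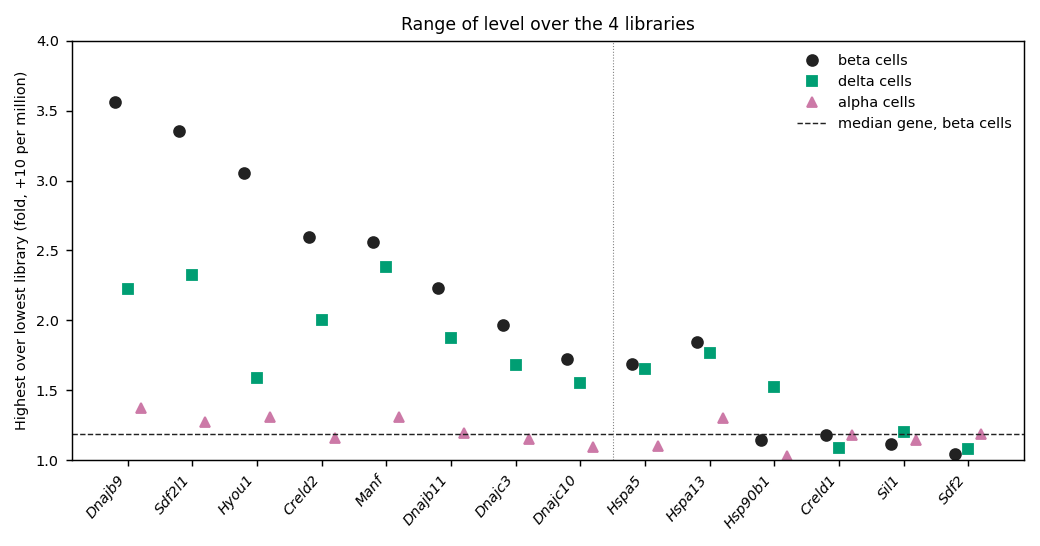
Highest over lowest library for each gene (fold, after adding 10 CPM), in beta, delta and alpha cells, with 6 relatives and partners to the right of the dotted line; the dashed line is the median gene in beta cells at 1.19-fold. Beta-cell values run from 1.73-fold (Dnajc10) to 3.56-fold (Dnajb9), while no alpha-cell value of the 8 genes reaches 1.5-fold.

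Other measures differ between the libraries too. The alpha marker Ttr stood at 3841 and 3751 CPM in beta cells of libraries 1 and 3, against 529 and 355 in libraries 2 and 4. The alpha marker Gc stood at 215, 115, 239 and 97.9 in beta cells of libraries 1 to 4. The beta markers Mafa, at 606, 1631, 681 and 1151, and Slc2a2, at 62.2, 190, 90.2 and 107, were higher in libraries 2 and 4. G6pc2 and Nkx6-1 were higher there too, but for Ucn3 library 4 was not above library 3. The osteopontin gene Spp1 stood at 21054, 1837, 16222 and 3973 and Fos at 657, 201, 654 and 206. Median Ins2 was 17.0%, 35.7%, 18.7% and 34.9% of UMIs per beta cell. Their part in the ranges was not tested. With hormone genes counted in the total, 6 of the 8 genes kept a range of at least 1.5-fold in beta cells, against 18.7% of all genes, and 6 in delta cells, against 9.3%.

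Delta cells, which secrete somatostatin, also had a range of at least 1.5-fold for all 8 genes, against 10.2% of all genes tested. Dnajb9 levels were 268, 517, 308 and 607 CPM, those of Sdf2l1 199.7, 398, 236 and 477. For Manf the levels were 786, 1636, 875 and 1888, a 2.38-fold range that was the widest of the 8 in delta cells. Dnajc10 had the narrowest at 1.55-fold, with 123, 197, 155 and 196. As in beta cells, libraries 2 and 4 held the higher values for every one of the 8 genes. Markers of other cells were uneven in delta cells too. Acinar markers summed to 3190, 236, 184 and 181 CPM in libraries 1 to 4, and plasma cell markers to 91.9, 10.6, 1077 and 9.42. Their part in the delta-cell levels was not tested.

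In alpha cells, which make glucagon, 0 of the 8 genes reached a 1.5-fold range, against 6.05% of all genes tested, and the median of the 8 was 1.23-fold beside 1.18-fold for all genes. Dnajb9 had the widest range there, 1.38-fold, at 139, 185, 140.3 and 195 CPM. Levels of Sdf2l1 were 92.2, 108, 83.9 and 109, those of Manf 455, 559, 433 and 569. Creld2 stood at 59.3, 58.3, 64.1 and 53.9 and Dnajb11 at 100.1, 84.1, 82.3 and 85.6, so for these genes libraries 2 and 4 were not above both others. Plasma cell markers summed to 1186, 18.2, 56.1 and 9.85 CPM in alpha cells of libraries 1 to 4, and macrophage markers to 225, 24.2, 51.0 and 24.6. Endothelial markers summed to 8.65, 125, 55.5 and 26.2 there. The part of these other markers in the alpha-cell levels was not tested. The difference in range between the classes was not tested either.

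**Figure D2:**
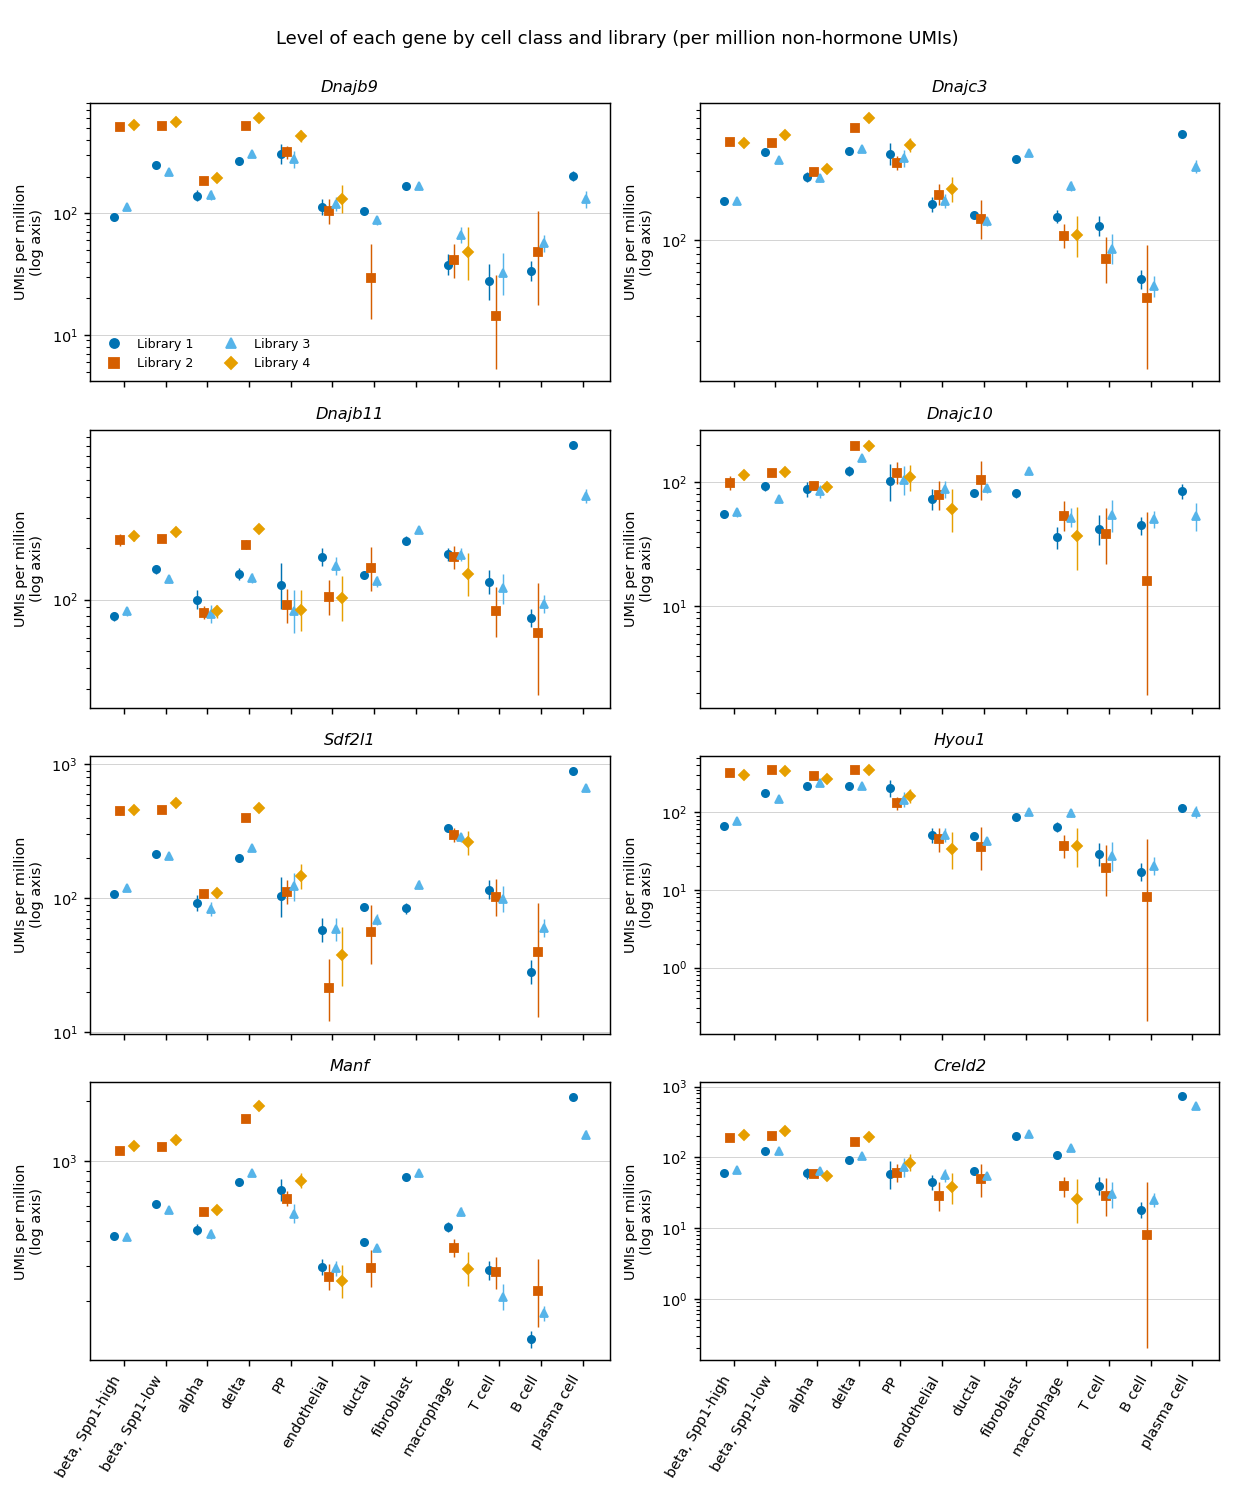
Level of each of the 8 genes (CPM outside hormone genes, log axis) by cell class and library; points are summed cells of 1 library with at least 20 cells, and bars are exact 95% Poisson intervals. In beta and delta cells libraries 2 and 4 lie above libraries 1 and 3, alpha cells lie close together, and plasma cell-like cells reach the highest Dnajb11, Sdf2l1, Manf and Creld2 levels.

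Within a library, beta cells were set against alpha cells. A gene was called when its level differed at least 1.5-fold the same way in all 4 libraries. Sdf2l1 alone of the 8 was called, higher in beta cells with log2 ratios of 0.60, 1.99, 0.87 and 2.13 in libraries 1 to 4, in a comparison where 6.84% of all genes tested were higher and 5.16% lower. Its smallest ratio lies just above the threshold, and a stricter cell filter, keeping cells past several hormone thresholds, leaving out the 6% of cells with the most UMIs, or counting hormone genes each ended the call.

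The remaining genes had higher ratios in libraries 2 and 4 than in libraries 1 and 3. In libraries 1 and 3 they were within 1.5-fold, apart from Hyou1, which was lower in beta cells. In libraries 2 and 4 they were at least 1.5-fold higher in beta cells, apart from Hyou1 and Dnajc10, which were within 1.5-fold. Creld2 had 0.42, 1.61, 0.47 and 1.91, Dnajb11 0.07, 1.33, 0.35 and 1.43, and Dnajb9 0.10, 1.44, 0.19 and 1.47. For Manf the log2 ratios were 0.11, 1.06, 0.18 and 1.15. Hyou1 changed sides, with log2 ratios of -0.99, 0.24, -1.06 and 0.30. Its alpha-cell level was 219, 290, 239 and 267 CPM. Dnajc3 had -0.05, 0.64, 0.00 and 0.75, past 1.5-fold in libraries 2 and 4. Dnajc10 stayed within 1.5-fold in all 4 libraries, at -0.30, 0.32, -0.33 and 0.36. By library, 1, 6, 1 and 6 of the 8 genes were at least 1.5-fold higher in beta cells, against 13.2%, 12.2%, 13.6% and 12.1% of all genes tested. One gene, Hyou1, was at least 1.5-fold lower in library 1 and in library 3, where 10% and 8.75% of all genes were.

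Genes of other branches of the stress response were counted by the same rule against alpha cells. Of 8 PERK-ATF4 genes 5 were higher and 0 lower, led by the stress regulator Nupr1 (median log2 ratio 4.26), the ATF4 target Trib3 (3.06) and Atf5 (2.73). ERAD genes gave 6 higher and 0 lower of 12, with the mannosidase-like Edem1 at 1.79, the membrane adaptor Herpud1 at 1.51 and Derl1 at 1.28. Within the HSP70 cycle list 0 of 11 were called either way, and Hspa5 had 0.17, 0.73, 0.23 and 0.83. Abundant folding genes gave 2 of 13, the oxidases Ero1lb (3.20) and Ero1l (1.46), both higher. UPR sensors and factors gave 2 higher and 1 lower of 10, and cytosolic heat shock genes 2 higher of 12. The median of all genes lay between -0.04 and 0.04 in the 4 libraries.

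Beta cells were not at least 1.5-fold above delta cells for any of the 8 genes in any library, where 7.76%, 8.53%, 8.48% and 8.68% of all genes tested were, and 4.1% in all 4. Dnajc10 was lower in beta cells in all 4 libraries, at log2 ratios of -0.75, -0.69, -1.14 and -0.67, the only call of the 8 against 4.45% of all genes. With the mean of each cell's level in place of the summed level it was no longer called, and with hormone genes in the total 6 of the 8 were called lower, against 9.4% of all genes. By library 5, 1, 5 and 1 of the 8 were at least 1.5-fold lower, against 7.41%, 8.65%, 6.99% and 8.76% of all genes. Manf was lower throughout, at -0.67, -0.47, -0.82 and -0.57. Dnajb9 was level with delta cells in libraries 2 and 4 (0.01 and -0.12) and below them in libraries 1 and 3 (-0.80 and -0.89). Hyou1 had the same form, at -0.96, -0.02, -0.94 and -0.06. Creld2 stayed within 0.26 of 0 in each library. Hspa13, a relative of BiP, was called lower in beta cells too (median -0.91), as were 3 of 13 abundant folding genes, led by Txndc5 (-1.11). Of the same 13 genes, 2 were called higher, Ero1lb (4.24) and Ero1l (1.12). ERAD genes gave 3 higher and 1 lower of 12.

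**Figure D3:**
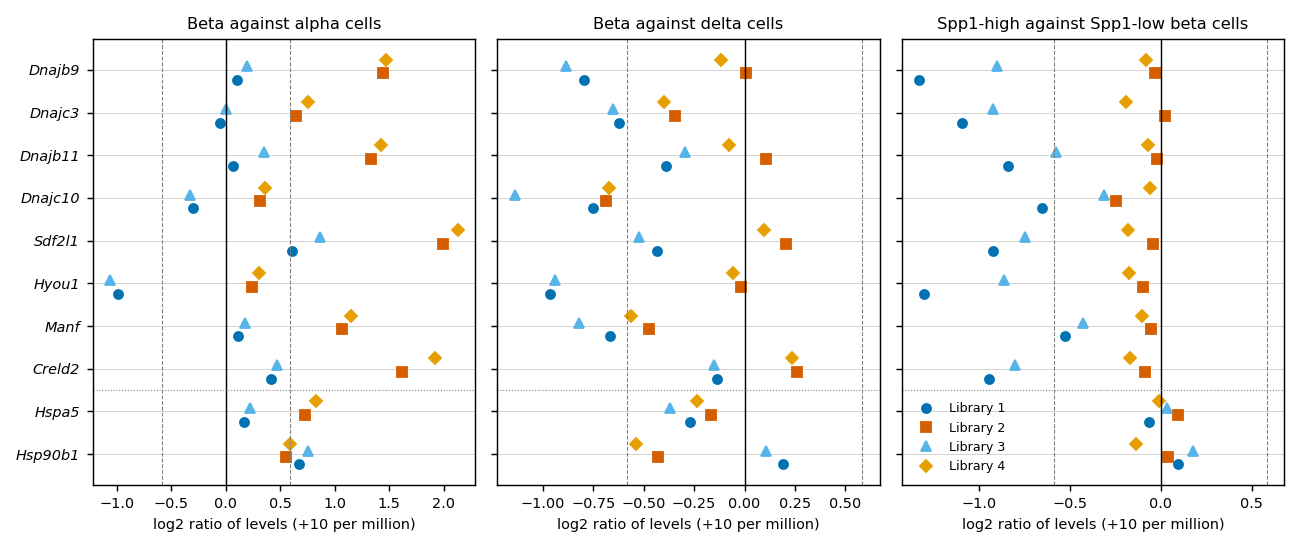
log2 ratio of levels within each library (10 CPM added), for beta against alpha cells, beta against delta cells, and Spp1-high against Spp1-low beta cells; dashed lines mark 1.5-fold and Hspa5 and Hsp90b1 lie under the dotted line. Libraries 1 and 3 lie to the left of libraries 2 and 4 for all 8 genes in the first panel, and in the third panel only points of libraries 1 and 3 pass the lower 1.5-fold line.

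Spp1, which encodes osteopontin, splits the beta cells at 0.5% of UMIs into 355, 131, 377 and 219 Spp1-high cells and 234, 3211, 356 and 2002 Spp1-low cells in libraries 1 to 4. In library 1, 7 of the 8 genes were at least 1.5-fold lower in Spp1-high cells, against 2.95% of all genes tested, and in library 3 it was 5 of 8, against 2.75%. In libraries 2 and 4 it was 0 of 8, against 1.19% and 0.637%. No gene of the 8 was called in all 4 libraries, where 0.0562% of all genes were.

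Dnajb9 stood at 93.7 CPM in Spp1-high and 250.1 in Spp1-low cells of library 1 and 112 against 217 in library 3. In libraries 2 and 4 its levels were 509 against 520.0 and 531 against 562. Its log2 ratios were -1.33, -0.03, -0.90 and -0.08. Hyou1 had log2 ratios of -1.30, -0.10, -0.86 and -0.17, and Dnajc3 at -1.09, 0.03, -0.92 and -0.19. Manf and Dnajc10 had smaller ratios in libraries 1 and 3, at -0.53 and -0.43 and at -0.65 and -0.31. Xbp1 itself had -1.06, -0.12, -1.08 and -0.06. Hspa5, by contrast, had -0.06, 0.09, 0.03 and -0.01, and Hsp90b1 lay within 0.18 of 0 in every library, so BiP was level where its co-chaperones were not.

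Within Spp1-low cells alone, 7 of the 8 genes still had a range of at least 1.5-fold over the libraries, against 13.4% of all genes tested. Dnajc3 was the eighth, at 406, 472, 360 and 537 CPM, a 1.48-fold range. Dnajb9 kept 2.52-fold and Sdf2l1 2.43-fold. In Spp1-high cells all 8 had it, against 26.1% of all genes, and the ranges reached 5.21-fold for Dnajb9 and 4.36-fold for Hyou1.

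Markers of other cells were read on each side of the split. Acinar markers summed to 4251 CPM in Spp1-high beta cells of library 1, with 6 of 6 markers at 20 CPM or more, and to 155 in its Spp1-low cells. In Spp1-high cells of libraries 2, 3 and 4 they summed to 0, 10.5 and 2.00, with 6, 0 and 3 markers at 0. Of the 8 ductal markers, 4 or 5 reached 20 CPM on both sides in each library, and their sums were 1825 to 2360 and 1673 to 2224. Among them the ductal genes Krt19 and Cftr stood at 14.3 or less and 1.501 or less. Sox9, Muc1 and Krt8 were higher in Spp1-high than in Spp1-low cells of every library, and Krt7 was lower. In library 1, Sox9 stood at 12.37 against 2.407 CPM, Muc1 at 22.86 against 6.418 and Krt19 at 14.26 against 4.974. Muc1 stood at 21.25 against 7.996 in library 3. Krt19, Cftr, Epcam and Krt18 were higher in Spp1-high cells of some libraries and lower in others. Macrophage markers summed to 68.1, 48.9, 45.9 and 52.3 CPM in Spp1-high and to 203, 67.6, 124 and 55.4 in Spp1-low cells of libraries 1 to 4.

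The alpha markers Irx2 and Gc were, like the 8 genes, lower in Spp1-high cells of libraries 1 and 3. Irx2 stood at 2.69 against 23.3 CPM in library 1 and at 1.64 against 30.1 in library 3, and Gc at 143 against 344 and at 152 against 334. Ttr went the other way, at 4297 against 3025 and at 4258 against 3196. The part of these other markers in the difference was not tested.

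A per-cell view was taken with each cell thinned to 5000 non-hormone UMIs, leaving out shallower cells, so that 543, 3070, 656 and 2079 beta cells remained. The 8 genes together gave a median of 5, 16, 5 and 17 UMIs per beta cell in libraries 1 to 4. Cells with at most 5 such UMIs made up 53.0%, 3.88%, 50.3% and 3.27%. The 95th percentiles of libraries 1 and 3 were 20 and 18.2 UMIs, little above the medians of libraries 2 and 4. In Spp1-low cells the medians were 8, 16, 7 and 17, and in Spp1-high cells 4, 16, 4 and 15. Alpha cells had medians of 6, 8, 6 and 8, near the beta cells of libraries 1 and 3. Delta cells had 11, 20, 12 and 23.5. Endothelial-like cells had 4, 4, 5 and 4.

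**Figure D4:**
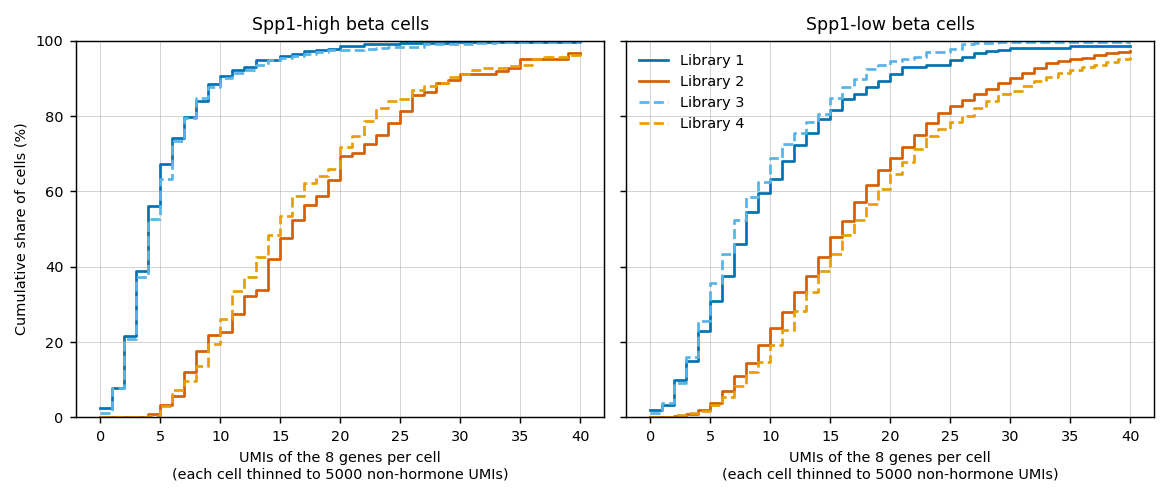
Cumulative share of beta cells (%) by the UMIs of the 8 genes together per cell, each cell thinned to 5000 non-hormone UMIs, for Spp1-high and Spp1-low cells; each line is 1 library. The lines of libraries 1 and 3 rise early in both panels, with medians of 4 (Spp1-high) and of 8 and 7 (Spp1-low), and those of libraries 2 and 4 have medians of 15 to 17.

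Beta cells were also ordered by their own Hspa5 share within each library, after the same thinning. Between the 25% of cells with the most Hspa5 and the 25% with the least, 7 of the 8 genes were at least 1.5-fold higher in all 4 libraries, against 0.754% of all genes tested. A gene was tested if either end had at least 50 UMIs in every library. Creld2 and Hyou1 in libraries 1 and 3, and Sdf2l1 in library 1, had that many only at the end with the most Hspa5. Calls of these genes thus rest on that entry. Their lowest ends held 135 cells in library 1 and 164 in library 3. Creld2 stood there at 37.0 and 40.2 CPM and Hyou1 at 65.2 and 51.2. In Spp1-low cells only, Creld2 and Dnajc10 had too few UMIs to be tested. Of the 6 genes tested there, 5 were called higher, against 2.03% of all genes. In Spp1-low cells of libraries 1 and 3, Sdf2l1, Dnajb11 and Hyou1 had enough UMIs only at the end with the most Hspa5. Their calls there rest on that entry too. Their UMIs at the lowest and highest ends were 23 and 116, 31 and 78, and 34 and 66 in library 1. In library 3 these were 33 and 103, 36 and 65, and 26 and 75. Dnajb9 and Manf had enough at both ends. Over all beta cells, Sdf2l1 went from 57.8 to 338 CPM (library 1) and 283 to 754 (library 2) between the lowest and highest 25%. In libraries 3 and 4 it went from 69.5 to 290.2 and from 321 to 823. Its log2 ratios were 2.36, 1.38, 1.92 and 1.33. Manf had 1.97, 1.38, 2.18 and 1.34, larger in libraries 1 and 3. Creld2 was the most even, at 1.69, 1.63, 1.71 and 1.67, and Hyou1 had 1.20, 1.17, 1.42 and 1.28. Among the J-domain proteins, Dnajb11 had 1.13, 0.91, 1.01 and 0.90, Dnajb9 0.93, 0.93, 0.79 and 0.96, and Dnajc3 0.97, 0.93, 0.67 and 0.92. Dnajc10 was the exception, at 0.44, 0.50, -0.07 and 0.51. Dnajb9, Dnajb11, Dnajc3 and Manf had enough UMIs at both ends over all beta cells. They were higher in cells with more BiP transcript in the libraries with low levels as well as in those with high levels. Sdf2l1, Creld2 and Hyou1 went the same way, with the limit given above.

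Ordering by the Ins2 share gave another picture. In library 1, 8 of the 8 genes were at least 1.5-fold higher in the 25% of cells with the most Ins2, against 6.65% of all genes tested, and in library 3 it was 7 of 8, against 5.58%. None was lower there, against 3.62% and 4.79%. In libraries 2 and 4 none was higher, against 1.57% and 1.81%, and 1 and 2 were lower, against 3.02% and 3.3%. Hyou1 went up from 61.9 to 240.2 CPM (library 1) and from 77.8 to 200.1 (library 3), but down from 399 to 272 (library 2) and from 428 to 226 (library 4). Its log2 ratios were 1.80, -0.54, 1.26 and -0.89. Dnajb9 had 1.61, 0.00, 1.20 and 0.05, and Dnajc10 0.75, -0.66, 0.61 and -0.74. Manf had 0.70, 0.08, 0.28 and -0.17, and it was the gene under 1.5-fold in library 3. Hspa5 went the other way from its co-chaperones in libraries 1 and 3, at -0.24, -0.56, -0.53 and -0.54.

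These ends differ in more than Ins2. In libraries 1 and 3, 72.8% and 58.5% of the lowest 25% were Spp1-high, against 15.7% and 8.74% of the highest, while in libraries 2 and 4 it was 4.55% and 12.3% against 2.51% and 8.65%. Within Spp1-low cells alone, Dnajb9 had 1.45, -0.01, 1.31 and 0.09 and Hyou1 1.62, -0.54, 1.18 and -0.87, about as large as over all beta cells. Median Ins2 went from 8.54% to 34.0% of UMIs between these ends in library 1 and from 27.4% to 41.9% in library 2, so the span covered was wider where Ins2 was low. The part of that span was not tested.

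**Figure D5:**
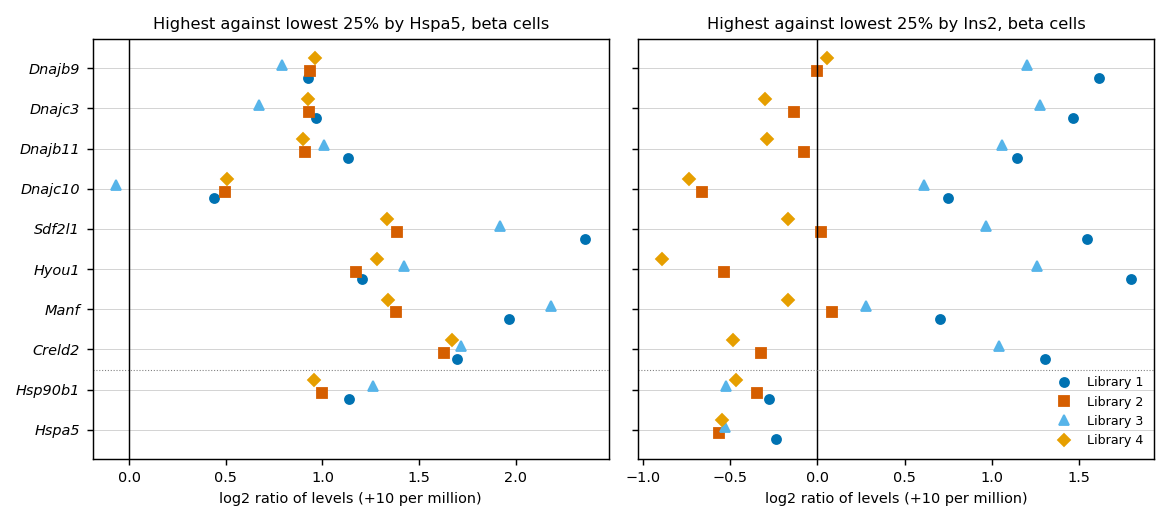
log2 ratio of the highest to the lowest 25% of beta cells within each library, ordered by Hspa5 (left, cells thinned to 5000 non-hormone UMIs) and by Ins2 (right); Hspa5 on the left was used for the ordering and is not plotted there. On the left 7 of the 8 genes lie to the right of 0 in every library, and on the right libraries 1 and 3 lie further right than libraries 2 and 4 for all 8 genes.

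Outside the endocrine cells, classes were named from markers of clusters. Plasma cell-like cells, which secrete antibody, were found mainly in libraries 1 and 3, with 88 and 41 cells. They held Creld2 at 728 and 528 CPM, Dnajb11 at 803 and 406, Sdf2l1 at 894 and 666 and Manf at 2099.93 and 1365. Each of these lies above the beta-cell level of every library. Hyou1, at 113 and 101, and Dnajb9, at 202 and 130.1, did not, so the 8 genes did not keep the same proportions in both secretory classes. Xbp1 stood at 776 and 414 in these cells.

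Macrophage-like cells held Sdf2l1 at 333, 298, 286 and 262 CPM in libraries 1 to 4, above the beta-cell level in libraries 1 and 3 and below it in libraries 2 and 4. Their Dnajb9 stood at 37.8, 40.9, 65.9 and 48.4. The class joins a cluster of 31, 88, 48 and 36 cells in libraries 1 to 4 and another of 117, 0, 79 and 0. Its makeup thus differs between libraries, and the part of this in its levels was not tested. Fibroblast-like cells of libraries 1 and 3, with 165 and 167 cells, held Dnajc3 at 364 and 404, Manf at 834 and 878 and Creld2 at 202 and 216, but Sdf2l1 at only 84.3 and 127. B cell-like cells were low for all 8, with Hyou1 at 17.1 and 20.5 and Creld2 at 18.1 and 25.3 in libraries 1 and 3. Pericyte-like cells, only 43, 23, 34 and 25 in number, held Dnajc10 at 173, 208, 230.4 and 142, beside 123 to 197 in delta cells.

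Endothelial-like cells numbered 151, 83, 152 and 69, mainly from 1 cluster in libraries 1 and 3 and from another in libraries 2 and 4. Sdf2l1, Creld2, Manf and Hyou1 were at least 1.5-fold higher in beta cells in all 4 libraries, against 22.3% of all genes tested, and none was lower, against 10.1%. Sdf2l1 had log2 ratios of 1.18, 3.90, 1.30 and 3.44, and Hyou1 had 0.94, 2.70, 0.96 and 2.98. With hormone genes in the total none was called, and without the 6% of cells with the most UMIs it was 2. Dnajb11 was below the endothelial-like level in libraries 1 and 3 and above it in libraries 2 and 4, at -0.71, 1.06, -0.52 and 1.19. In endothelial-like cells 3 of the 8 genes had a range of at least 1.5-fold over the libraries, against 39.3% of all genes, and over all non-endocrine cells it was also 3, against 28.6%. Against all non-endocrine cells, whose makeup differs between libraries, Hyou1 and Dnajb9 were called higher, against 18% of all genes, and none lower, against 8.83%. The non-endocrine class includes 3 unnamed clusters led by endocrine genes such as Chgb and Pcsk2, with 80, 21, 97 and 27 cells in libraries 1 to 4. Without them the same 2 genes were called higher, against 20.2% of all genes.

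The genes whose profile was most like the mean of the 8 were ranked over 20 points, 5 classes (Spp1-high beta, Spp1-low beta, alpha, delta and endothelial-like) in 4 libraries, among 7377 genes. Points of a library share its depth and handling, so the correlation is a description. The disulfide isomerase Pdia6 had the highest Pearson r at 0.987, then Selenos, a selenoprotein of the ERAD machinery, at 0.984, the signal peptidase subunit Spcs2 at 0.980, Cnpy2 at 0.969 and the ER-to-Golgi SNARE Bet1 at 0.964. Pdia6 stood at 364, 888, 347 and 1005 CPM in beta cells. Hspa5 had 0.941, Hsp90b1 0.736, Xbp1 0.414 and Sdf2 0.155. Of the pairs among the 8, Sdf2l1 and Creld2 were most alike at 0.979, and Dnajb11 and Hyou1 least at 0.431.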

How the data were processed

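The deposited values are counts of UMIs per gene and cell in 1 pooled matrix of 4 libraries, made by the authors with Cell Ranger 6.1.2 (per the file headers) on build mm10 (per the submitters' processing notes). Library numbers match no sample's labels. Genotypes were therefore not compared, and values are given without tests or p-values.

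Cells with at least 500 genes and at most 20% mitochondrial UMIs were kept. The 631 cells past several hormone thresholds and 197 cells with Ppy at 1% or more were set aside. No doublet caller was run. Instead, the 6% of cells with the most UMIs in each library were removed in an alternative. Non-endocrine cells were clustered (scanpy 1.11.5, igraph 0.11.9, scikit-learn 1.9.0; 1978 variable genes without the 8 genes and the lists, 30 components, 15 neighbours, Leiden resolution 1) into 31 clusters, of which 11 with 593 cells stayed unnamed. A cluster took a class name from 3 or more of its markers, each at 20 CPM or more and at least 3 times its median over clusters. Clusters led by endocrine genes stayed unnamed. This rule and the Ppy rule were set after seeing the data.

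Levels are CPM over UMIs outside Ins1, Ins2, Iapp, Gcg, Sst, Ppy and Pyy, with exact 95% Poisson intervals (scipy 1.17.1, numpy 2.4.6, pandas 2.3.3, Python 3.11.15). Ratios are log2 with a pseudocount of 10, and genes needed at least 50 UMIs in either class in every library. The ratio step was tested on simulated data. All 8 genes passed this minimum in every comparison, but 2 fell short in the Spp1-low alternative. Beyond them, the text names up to 3 genes per list with the largest ratio of 1 sign, relatives of the 8, Hspa5, Xbp1 and the 5 genes most alike. The genes, lists and rules were chosen with earlier results of these data known. Alternatives changed the total, the cell filter, thresholds, pseudocount, weighting, thinning or the libraries used.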

Additional observations from a re-analysis of the deposited data

How the results depend on the processing

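No paired analysis was possible because the library numbers are not tied to samples or replicate numbers and no test was run. Alternatives gave 1027 values. Of these 984 lay within 1 SD over libraries of the reported value (counts of genes within 1.5 times), a wide margin where libraries differ, 42 lay further off and 1 reversed a log2 ratio that had 1 sign in all 4 libraries (Dnajc3, below). Among the median log2 ratios of single genes, 49 changed sign, most of them where libraries 1 and 3 lay on the other side of 0 from libraries 2 and 4. With hormone genes in the total, the 8 genes called against alpha, non-endocrine and endothelial-like cells became 0 in each case (from 1, 2 and 4), those against delta cells became 6 (from 1), and the median log2 ratio of Dnajc3 against endothelial-like cells became -0.079. Hormone genes take 40.0% to 57.7% of beta-cell UMIs, which lowers every other level there. The 1 call against alpha cells became 0 with at least 1000 genes and at most 10% mitochondrial UMIs, with cells past several hormone thresholds kept, and without the 6% of cells with the most UMIs. The last setting also gave 0 against non-endocrine and 2 against endothelial-like cells. With the mean of each cell's level, 0 genes were called against delta cells. The cause of these changes was not tested. The 7 genes higher in the 25% of cells with the most Hspa5 became 5 in Spp1-low cells, where 6 were tested, and 6 with hormone genes in the total. Leaving out each library in turn kept 8 genes with a 1.5-fold range in beta cells and 7 or 8 in delta cells. Between the Ins2 ends, hormone genes in the total turned the median log2 ratio of 6 genes below 0, with Manf at -0.43. Leaving out the 3 clusters led by endocrine genes, chosen after seeing the data, kept 2 calls against non-endocrine cells. Depth limits Cdnf and the small classes of libraries 2 and 4.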
